A study of Bos taurus with 4 samples.

Results

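DNA methyltransferases, TET dioxygenases and UHRF1, the enzymes that write and erase methyl groups on cytosine and the protein that guides the maintenance enzyme, were followed in spermatozoa of Murrah buffalo breeding bulls that differed in field fertility. All sample probes named DNMT1, DNMT3A, DNMT3B, DNMT3L, TET1, TET2, TET3 or UHRF1 in the scanner output were taken, which gave 17 of the 51282 probes on the array and 7 of its 32429 gene names. DNMT1 and UHRF1 had 4 probes each, DNMT3A and TET2 had 3 each, and DNMT3B, DNMT3L and TET3 had 1 each, while TET1 had 0 probes under that symbol. RNA from Percoll-selected spermatozoa was pooled in equal amounts from 2 bulls per pool, and 2 high-fertile pools and 2 low-fertile pools were each labelled with Cy3 and hybridized to an array of 60-base oligos designed against Bos taurus. All bulls were Murrah breeding males with no treatment named, and their ages were not given in the sources used here. Which bulls formed which pool is not known, so the pool was the replicate, and p-values measure only the spread between pools.

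Methylation of cytosine in CG dinucleotides is copied to the new DNA strand after replication by DNMT1, which UHRF1 brings to half-methylated sites. DNMT3A and DNMT3B place new methyl groups, and DNMT3L, which has no enzyme activity of its own, helps them during germ cell development, when paternal imprints are laid down. TET1, TET2 and TET3 oxidize 5-methylcytosine and so open the way to its removal, and TET3 of the egg acts on the paternal genome after fertilization. Ripe spermatozoa are largely silent in transcription, so the RNA they hold is mostly left from earlier stages of their development.

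The oligos from which the group differences were read are shown here, with CG dinucleotides, the sites these enzymes act on, in capitals. Each is written 5′ to 3′ as the scanner output gives it, and coordinates are those of Btau_3.1 in the same files. The first 30 bases are printed for the called probes of DNMT3A (chr11:76209163-76209222, plus strand), TET2 (chr6:21383721-21383780, minus strand) and UHRF1 (chr7:17790489-17790548, minus strand). The DNMT3L probe (chr1:147297752-147297811, plus strand), the fourth called probe, is printed whole.
DNMT3A A_73_P167767: atcagtcccacaCGcacacacaggaacatg
TET2 A_73_P087281: gaagcactttgtctacctaagctttgacaa
UHRF1 A_73_109696: aggaaggaacaaagttggacttctcagtgt
DNMT3L A_73_115477: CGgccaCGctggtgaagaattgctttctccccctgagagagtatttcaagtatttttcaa

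The next set holds the DNMT3B oligo, which no array read well above background, and 1 oligo each of DNMT1, UHRF1 and TET2 that was too dim to be tested. The DNMT3B probe spans chr13:63040511-63041584 on the plus strand, 1074 bases of genome for 60 bases of oligo, so its match is split in the genome. The others lie at chr7:13164559-13164617 (DNMT1), chr7:17793445-17793504 (UHRF1) and chr6:21424003-21424062 (TET2), all on the minus strand.
DNMT3B A_73_100778: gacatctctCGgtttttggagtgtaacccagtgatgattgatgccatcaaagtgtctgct
DNMT1 A_73_P102691: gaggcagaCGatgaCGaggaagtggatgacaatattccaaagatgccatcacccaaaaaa
UHRF1 A_73_P084511: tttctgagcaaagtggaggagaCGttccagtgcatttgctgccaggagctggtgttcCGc
TET2 A_73_P110316: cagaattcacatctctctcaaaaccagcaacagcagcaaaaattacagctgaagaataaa

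Signals are the scanner software's background-subtracted intensities in linear units, and tests used their log2 values after the 75th percentile of each array was subtracted, called normalized log2 signals below. A probe was called "well above background" by the mark that the scanner software sets, and was tested when both arrays of at least 1 group carried it, which held for 41.0% of all probes. The low-fertile arrays stood apart from each other in background. Low-fertile pool 2 had 13033 probes well above background against 23228 to 25642 on the other 3 arrays, and its negative controls spread with an SD of 125.7 signal units against 1.94 to 27.78. Arrays of the same fertility group shared a row of the slide, and the groups sat in different rows, so slide position and fertility group cannot be told apart. Labelled cell type was checked with marker lists. Of 18 sperm and late spermatid genes, 5 were well above background on each of the 4 arrays and 5 on none, including AKAP4 and SMCP of the sperm tail, and their summed levels were 24.5 to 29.1 times the 75th percentile. Of 16 leukocyte genes, 11 were well above background on each of the 4 arrays and CD3E, CD8A and S100A9 on none, with summed levels of 743 and 763 in high-fertile against 875 and 962 in low-fertile pools. LYZ (12400 to 16200 signal units), PTPRC (6980 to 11500) and CD3D (2270 to 5430) carried most of these sums. Of the 13 leukocyte genes tested, PTPRC was higher and CD3D lower in the low-fertile pools, with log2 differences of 0.78 (adjusted p 0.016 in limma) and -1.05 (adjusted p 0.0102). Also higher there were PRM1 among 8 sperm genes tested (0.67, adjusted p 0.0231 in limma), STAR among 6 testicular somatic genes (0.79, adjusted p 0.0212) and 1 of 3 red cell genes (1.24, adjusted p 0.0118). Of all genes 26.1% passed, 9.53% higher. Earlier germ cell genes summed to 2.8 to 3.89, and 6 of the 9 on the array, DDX4 and DAZL among them, were on no array well above background. Testicular somatic genes summed to 18.6 to 22.6, and epithelial genes to 23.9 to 28.4 with EPCAM and CDH1 at background. The part of these cells in the results on methylation enzymes was not tested.

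Of the 17 probes, 4 were well above background on all 4 arrays, 1 each of DNMT1, DNMT3A, DNMT3L and TET3, against 24.5% of all probes, and 3 were so on none. Counted by array, 10 and 12 probes reached that mark in high-fertile pools 1 and 2, and 8 and 4 did in low-fertile pools 1 and 2. Of all 51282 probes, 23271 and 23228 reached it in high-fertile pools 1 and 2, and 25642 and 13033 in low-fertile pools 1 and 2. Tests were possible for 9 probes, of which 5 passed the filter through the high-fertile arrays alone and 0 through the low-fertile arrays alone. Such a probe was tested only because it was bright in the high-fertile pools, so its direction is partly set by the filter, and 38.7% of all tested probes passed in the same way. Counts over the tested probes below are given as a description. None of the 17 probes was saturated.

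The low-fertile pools lay below the high-fertile pools for 10 of the 17 probes, above them for 1, and overlapped with them for 6. Over all probes on the array 22.5% had the low-fertile pools below without overlap, and 49.0% had no overlap in either direction. Among the 9 tested probes 7 were below and 1 above, where 35.5% and 33.6% of all tested probes were so and 69.1% had no overlap. The log2 difference, low-fertile minus high-fertile, was below 0 for 13 of the 17 probes against 42.2% of all probes, and its median was -0.34 against 0.12. It was below 0 for 8 of the 9 tested probes, against 50.4% of all tested. These medians include probes at background, where low signals carry little information. In limma with Benjamini-Hochberg adjustment over 21033 probes, 4 of the 9 tested probes passed an adjusted p of 0.05 each lower in the low-fertile pools, where 26.8% of all tested probes passed in either direction, 17.6% lower and 9.22% higher. When probes that all 4 arrays read well above background were fitted alone, 2 of 4 enzyme probes passed, both lower, where 34.6% of all such probes passed and 12.9% were lower. The called probes of DNMT3A and DNMT3L were well above background on all 4 arrays, whereas those of TET2 and UHRF1 were so on the high-fertile arrays only and entered the test through them. By brightest tested probe these are also the called genes, 4 of the 6 that could be tested, where 26.1% of all genes passed and 16.6% were lower. With the filter on dim probes dropped or weakened, and with the methods' t-test, none of the 4 passed the adjusted p, and neither did any probe of the whole array (0 of 51282 and 0 of 40145 in limma, 0 of 21024 in the methods' t-test). Unadjusted p was under 0.05 for 6 of 17, 6 of 17 and 3 of 9 enzyme probes under these settings, and for 9278 of 51282, 9796 of 40145 and 6084 of 21024 probes of the array. In pooled bulk RNA, fewer cells carrying a transcript and less of it per cell cannot be told apart.

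**Figure D1:**
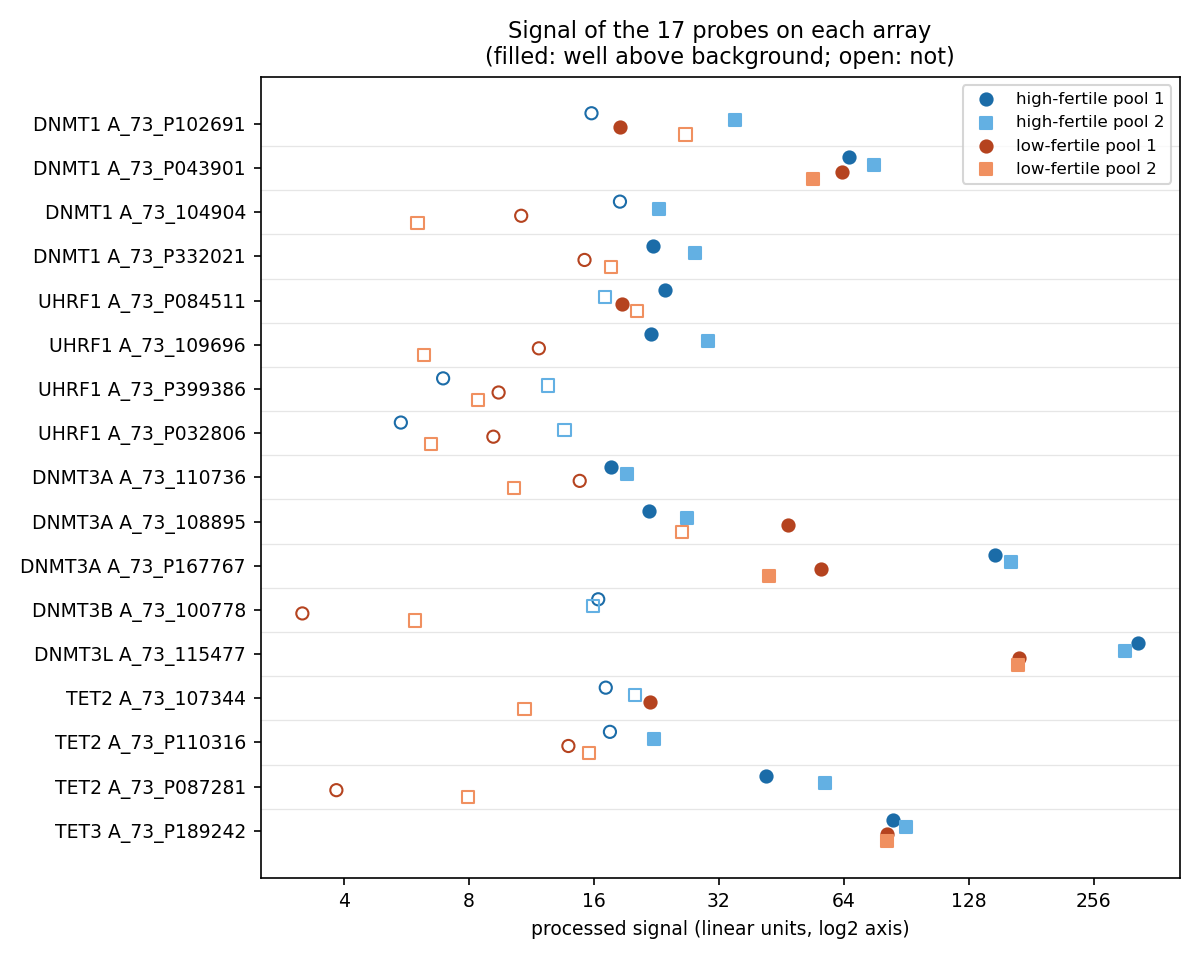
Processed signal (linear units on a log2 axis) of each of the 17 probes on the 4 arrays, with blue for high-fertile and red or orange for low-fertile pools, circles for pool 1, squares for pool 2, and filled symbols where the probe was well above background. The filled low-fertile symbols are fewer than the filled high-fertile ones. Low-fertile pool 2 also had the fewest probes well above background over the whole array (13033 of 51282). The DNMT3L, DNMT3A A_73_P167767 and TET2 A_73_P087281 probes show the low-fertile pools clear of the high-fertile pools on the low side.

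DNMT3A, which methylates DNA anew in germ cells and early embryos, had 3 probes on chromosome 11 that did not move together. The probe farthest along the transcript, A_73_P167767 at position 5274 of NM_001206502, read 148 and 162 in the high-fertile against 56.3 and 42.2 in the low-fertile pools. The low-fertile pools lay far below both high-fertile pools, with no overlap. Normalized log2 signals averaged 2.07 ± 0.08 (SD, n = 2) for high-fertile and 0.49 ± 0.17 (SD, n = 2) for low-fertile pools. The level was thus 3.0-fold lower in the low-fertile pools, a log2 difference of -1.58 (SE 0.16, 95% interval -1.98 to -1.18, adjusted p 0.00331 in limma). Without low-fertile pool 2 it was -1.47, with an adjusted p of 0.0101 in limma. In this and every other fit that leaves out a pool, the lone pool of its group is assumed to vary like the pools of the other.

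The other DNMT3A probes gave weaker readings. A_73_110736 (chr11:76206955-76207014, transcript position 3066) read 17.6 and 19.2 in the high-fertile and 14.8 and 10.3 in the low-fertile pools. The low-fertile values were the lower ones but neither was well above background, and the log2 difference of -0.49 (SE 0.17, 95% interval -0.93 to -0.05) had an adjusted p of 0.0915 in limma. It turned to 0.31 with low signals raised to the detection limit. The limit of low-fertile pool 2 (-0.149 in normalized log2 signal) lay above both high-fertile readings (-1.06 and -0.95), which fixed that sign. With spike-in scaling, which moved the median of all tested probes to -0.42, the difference of this probe was -0.90 with an adjusted p of 0.0336. A_73_108895 (chr11:76208070-76208129, transcript position 4181) read 21.7 and 26.9 in the high-fertile and 47.0 and 26.1 in the low-fertile pools. It was the only 1 of the 17 probes with both low-fertile pools above both high-fertile pools after normalization, although the raw reading of low-fertile pool 2 lay between those of the high-fertile pools. Its log2 difference was 0.62 (SE 0.26, 95% interval -0.03 to 1.27, adjusted p 0.132 in limma). It was 0.95 when low-fertile pool 2, where it was not well above background, was left out, and 0.29 without low-fertile pool 1. The intervals of A_73_108895 and A_73_P167767 do not overlap, and the difference between these probes of 1 gene was not itself tested. On each array the middle reading of the 3 probes was that of A_73_108895, so with the median in place of the brightest probe DNMT3A repeated that probe's log2 difference of 0.62 (adjusted p 0.126 in limma). Its call therefore rests on A_73_P167767.

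DNMT3L, the cofactor without enzyme activity that directs DNMT3A in the male germ line, gave signals several times the detection limit on every array. Its single probe (transcript position 1186 of ENSBTAT00000019812) read 327 and 305 in the high-fertile against 169 and 168 in the low-fertile pools. The pools of a group lay close together and the groups were apart. Normalized log2 signals were 3.1 ± 0.08 (SD, n = 2) and 2.27 ± 0.12 (SD, n = 2). The low-fertile level was 1.77-fold lower, a log2 difference of -0.82 (SE 0.15, 95% interval -1.20 to -0.44, adjusted p 0.015 in limma). The direction was the same without each pool, but the adjusted p rose to 0.0793 when high-fertile pool 1 was left out and to 0.061 when the second was, and it was 0.0316 without low-fertile pool 2.

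DNMT3B, the second enzyme of new methylation, was not measurable here. Its probe read 16.4 and 15.9 in the high-fertile and 3.18 and 5.93 in the low-fertile pools and was well above background on none of the arrays. The high-fertile readings were the higher ones, but with none of the 4 well above background no fold or test is given.

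For DNMT1, the maintenance methyltransferase, 4 probes lay on the minus strand of chromosome 7 along NM_182651, of which 2 were tested and neither passed. The one well above background on all 4 arrays, A_73_P043901 (chr7:13150868-13150927, transcript position 4840), read 65.7 and 75.6 in the high-fertile and 63.2 and 53.9 in the low-fertile pools. The low-fertile values were lower by a margin close to the spread within groups, with normalized log2 signals of 0.93 ± 0.13 (SD, n = 2) and 0.75 ± 0.03 (SD, n = 2). The log2 difference was -0.19 (SE 0.15, 95% interval -0.56 to 0.19, adjusted p 0.39 in limma), so a change of either sign up to those bounds is compatible with the data. With spike-in scaling it was -0.60 with an adjusted p of 0.0429.

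The remaining DNMT1 probes were dim. A_73_P332021 (chr7:13150695-13150754, transcript position 5013) read 22.2 and 28.1 in the high-fertile and 15.2 and 17.6 in the low-fertile pools. It was well above background on the high-fertile arrays only, and its log2 difference was -0.52 (SE 0.21, 95% interval -1.04 to -0.01, adjusted p 0.118 in limma). Against the mean detection limit of the low-fertile arrays the level was at least 1.09-fold lower, a bound that rests on high-fertile pool 2 and low-fertile pool 1. The limit of low-fertile pool 2 (-0.149 in normalized log2 signal) lay above both high-fertile readings (-0.73 and -0.4), so that pool alone gives no bound. With low signals raised to each array's limit the log2 difference was -0.13 (adjusted p 0.855), and with spike-in scaling -0.93 (adjusted p 0.0202). Its neighbour A_73_104904 (chr7:13150742-13150801, transcript position 4966) read 18.5, 23.0, 10.7 and 6.02 in the same order of pools and was well above background in high-fertile pool 2 alone, so its log2 difference of -1.28, without overlap, was not tested. These 2 oligos overlap, sharing 13 bases (atCGgctaatttg) at the end of A_73_104904 and the start of A_73_P332021, and are not separate readings of the gene. The probe nearest the start, A_73_P102691 (transcript position 2105), read 15.8 and 35.1 in the high-fertile and 18.5 and 26.6 in the low-fertile pools, with overlap, and a log2 difference of 0.00 with no test.

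UHRF1, the protein that recognizes half-methylated CG sites and brings DNMT1 to them, had 4 probes along NM_001103098. A_73_109696 at transcript position 2692 read 22.0 and 30.1 in the high-fertile against 11.8 and 6.24 in the low-fertile pools. The groups were apart, but neither low-fertile value was well above background, so the low-fertile level has only an upper limit. Set against the mean detection limit of the low-fertile arrays, the level there was at least 1.13-fold lower, a bound that rests on high-fertile pool 2 and low-fertile pool 1. The limit of low-fertile pool 2 (-0.149 in normalized log2 signal) lay above both high-fertile readings (-0.74 and -0.3), so that pool alone gives no bound. The fitted log2 difference was -1.50 (SE 0.29, 95% interval -2.23 to -0.77, adjusted p 0.0178 in limma), from normalized log2 signals of -0.52 ± 0.31 (SD, n = 2) and -2.02 ± 0.52 (SD, n = 2). That call was lost without high-fertile pool 2, where the log2 difference was -1.28 and the adjusted p 0.0809 in limma, and with low signals raised to the detection limit it was -0.17 with an adjusted p of 0.809. Without low-fertile pool 2 it was -1.13, with an adjusted p of 0.0399.

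No other UHRF1 probe could be tested. A_73_P084511 (transcript position 2242) read 23.8 and 17 in the high-fertile and 18.7 and 20.3 in the low-fertile pools, with overlap and a log2 difference of 0.04. A_73_P399386 (chr7:17789716-17789775) and A_73_P032806 (chr7:17789488-17789547), farther along the transcript, read 5.49 to 13.6 across pools, overlapped, and were well above background on none of the 4 arrays. The lower reading of UHRF1 therefore comes from 1 of its 4 probes.

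**Figure D2:**
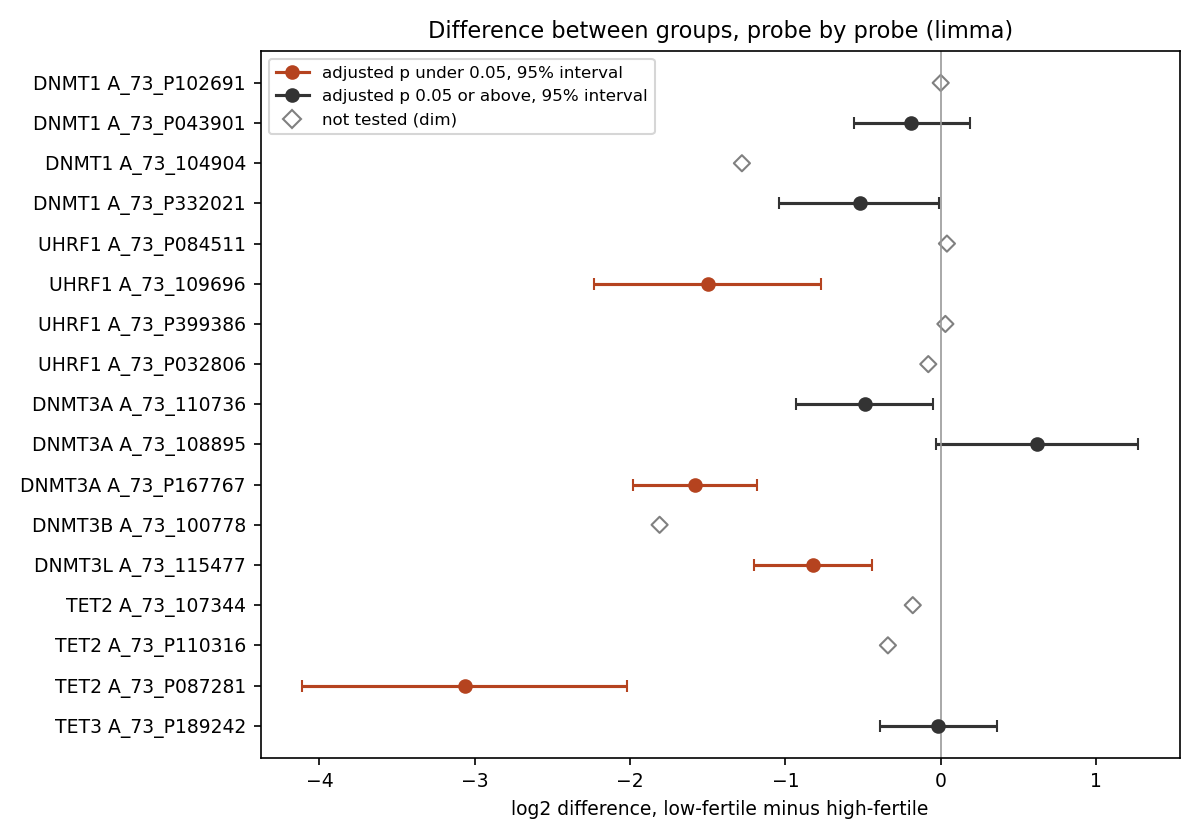
Log2 difference in normalized signal, low-fertile minus high-fertile, for each of the 17 probes, with circles and 95% intervals from limma for the 9 tested probes (red where the adjusted p was under 0.05) and open diamonds for the 8 too dim to be tested. The 4 red probes lie between -3.06 and -0.82, the TET3 probe sits at -0.02, and 1 DNMT3A probe lies at 0.62.

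TET2, a dioxygenase that oxidizes 5-methylcytosine, had 1 of its 3 probes well above background in both high-fertile pools and in neither low-fertile pool. A_73_P087281 (position 6918 of XM_001790146) read 41.6 and 57.7 in the high-fertile against 3.84 and 7.95 in the low-fertile pools. All values of the low-fertile pools were at background and far from those of the high-fertile pools. Against the detection limit of the low-fertile arrays the level was at least 2.15-fold lower. The fitted log2 difference of -3.06 (SE 0.42, 95% interval -4.11 to -2.02, adjusted p 0.00649 in limma) rests on low-fertile readings below that limit. With those readings raised to it, the log2 difference was -1.10 and the adjusted p 0.15. It was -3.68 without low-fertile pool 2, with an adjusted p of 0.00427.

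The other TET2 probes were near the detection limit in both groups and could hardly show such a gap. A_73_P110316 (transcript position 2142) read 17.5 and 22.4 in the high-fertile and 13.9 and 15.6 in the low-fertile pools, and A_73_107344 (chr6:21384675-21384684 as the files give it, transcript position 1673 of ENSBTAT00000023517) read 17.1 and 20.1 against 21.8 and 10.9. The first had the low-fertile pools below with a log2 difference of -0.34, the second overlapped with -0.18, and each was well above background on 1 array, so neither was tested.

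TET3, the family member that oxidizes the paternal genome in the zygote when supplied by the egg, differed least of the tested probes. Its probe A_73_P189242 (chr11:10878230-10878289, minus strand, position 5493 of XM_582145) read 84.0 and 90.2 in the high-fertile and 81.1 and 81.2 in the low-fertile pools. Normalized log2 signals were 1.24 ± 0.06 (SD, n = 2) and 1.22 ± 0.13 (SD, n = 2), so after normalization the groups overlapped. The log2 difference was -0.02 (SE 0.15, 95% interval -0.39 to 0.36, adjusted p 0.948 in limma). Its interval leaves room for changes up to those bounds, and with arrays scaled by their spike-in controls the difference was -0.43 with an adjusted p of 0.0574, a scaling that moved the median of all tested probes to -0.42.

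**Figure D3:**
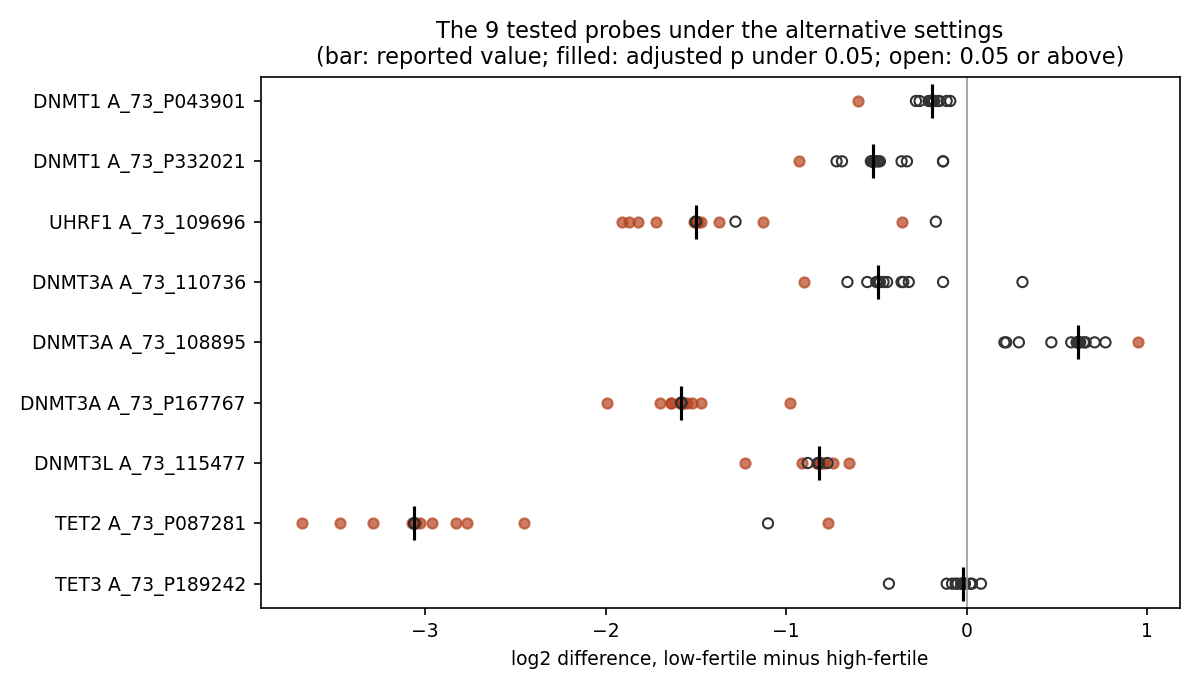
Log2 difference, low-fertile minus high-fertile, of the 9 tested probes under each alternative setting, with a vertical bar at the reported value, filled circles where the adjusted p was under 0.05 and open circles where it was not. Values of DNMT3A A_73_P167767 range from -1.99 to -0.98, those of DNMT3L from -1.23 to -0.65, those of TET2 A_73_P087281 from -3.68 to -0.77 and those of UHRF1 A_73_109696 from -1.91 to -0.17.

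GC content was 35.0% for the called UHRF1 probe, 38.3% for the called TET2 probe and 45.0% for the called DNMT3A and DNMT3L probes, against 35.0% to 55.0% over all 17. The called DNMT3A probe held the position farthest from the start of its transcript, 5274, whereas the called UHRF1 probe had 2 others beyond it. The called TET2 probe, at 6918, was placed on a different transcript from the other TET2 probes, so their positions cannot be ranked. Labelling began with an oligo-dT primer, and the distance from each probe to the 3′ end was not measured.

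Genes that act with these enzymes were each taken by their brightest tested probe. Of 58 genes in 4 lists, 54 were on the array and 28 were tested, of which 9 were lower, 1 was higher and 18 did not pass (35.7% passed, against 26.1% of all genes, 16.6% lower and 9.53% higher). Of the 9 lower genes 6 were tested only through the high-fertile arrays, so their direction is partly set by the filter, and 3 were well above background on all 4 arrays. The median log2 difference was -0.17 over the 28, against 0.01 over all 16685 genes. Maintenance and targeting partners of the DNMTs had 2 of 10 tested genes lower and 0 higher, with a median of -0.14. Among methyl-CpG readers 1 of 5 was lower and 1 higher, with a median of -0.03. TET partners and base excision repair genes had 2 of 6 lower and 0 higher (median -0.33), and the cycle that supplies the methyl donor S-adenosylmethionine had 4 of 7 lower and 0 higher (median -0.71). Over genes well above background on all 4 arrays alone, 5 of 14 passed, 3 lower and 2 higher. Of all such probes, a share over probes and not genes, 34.6% passed and 12.9% were lower.

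In the list of TET partners, XRCC1, the scaffold of single-strand break repair, had the largest change among genes well above background on all arrays. Its brightest probe read 221 and 227 in the high-fertile and 45.8 and 55.5 in the low-fertile pools, a log2 difference of -2.06 (SE 0.20, adjusted p 0.00296 in limma) with the groups apart, and -1.31 with normexp background correction. Its other 2 probes went the opposite way, with log2 differences of 1.17 (adjusted p 0.00729 in limma) and 0.59 (adjusted p 0.0636), so the direction for the gene depends on the probe. CXXC5, a CXXC zinc finger protein that binds unmethylated CG and holds TET2 back, read 82.2 and 84.4 against 41.5 and 32.1. That was a log2 difference of -1.10 (SE 0.15, adjusted p 0.00642 in limma), and -0.50 with normexp background correction. Its other probes had differences of -0.25, not well above background on any array, and -0.26 (adjusted p 0.419), both with overlap.

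SHMT1, which feeds 1-carbon units into the folate cycle, read 71.0 and 65.0 in the high-fertile and 38.8 and 33.2 in the low-fertile pools. Its groups did not overlap, and the log2 difference was -0.83 (SE 0.15, adjusted p 0.0129 in limma), with adjusted p 0.0723 when high-fertile pool 1 was left out and 0.052 when the second was. Its other 2 probes, too dim to be tested, had log2 differences of -0.24 and 0.42. With normexp background correction the brightest probe had a difference of -0.41. MBD3, a subunit of the NuRD complex, was the single gene of the 28 that was higher, with readings of 232 and 209 against 316 and 284. That log2 difference of 0.53 (SE 0.15, adjusted p 0.0493 in limma) kept its size without each of the pools in turn (0.45 to 0.62) but not its call (adjusted p 0.097 to 0.212), and was 0.12 with the arrays scaled by spike-in controls (adjusted p 0.524).

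**Figure D4:**
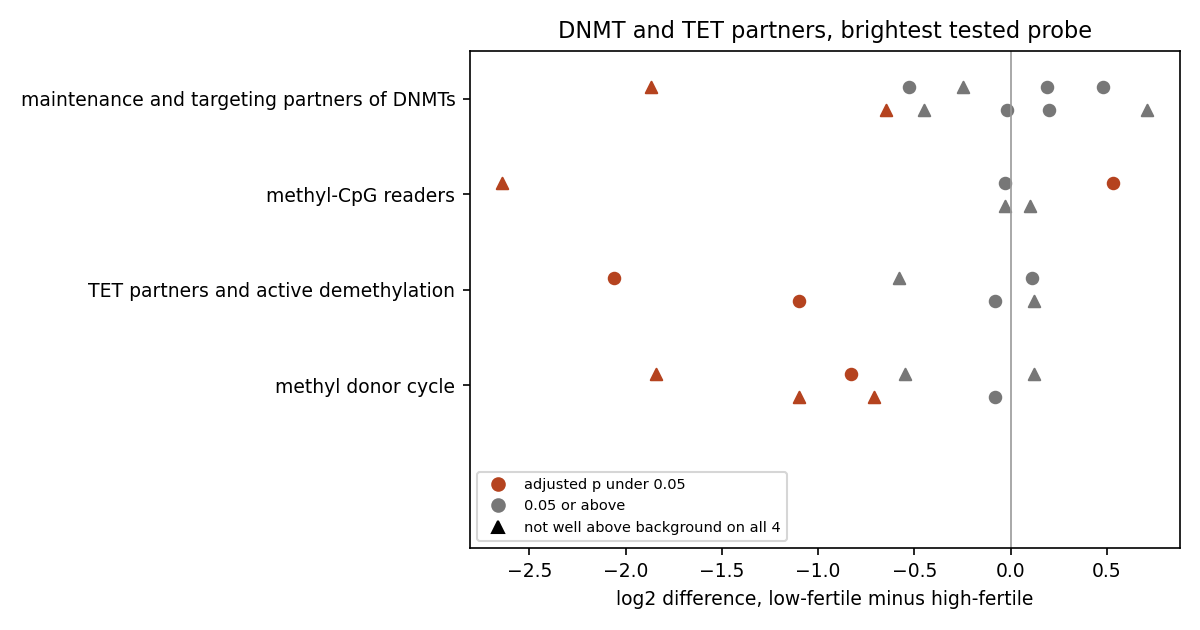
Log2 difference, low-fertile minus high-fertile, of the brightest tested probe of 28 partner genes in 4 lists, red where the adjusted p was under 0.05, with triangles for probes not well above background on all 4 arrays. Red symbols lie below 0 for 9 genes and above 0 for 1, MBD3 at 0.53, and XRCC1 at -2.06 is the lowest of the circles.

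Levels of DNMT3L, the brightest of the 7 genes' probes, were set beside those of other probes well above background on all 4 arrays. By Euclidean distance between normalized log2 signals centred on their mean over the 4 arrays, the probes most like it were RPL17 (0.021), SECTM1 (0.034) and RPL38 (0.035). Over 4 arrays such likeness is common, and 295 of 12548 probes lay within a distance of 0.2.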

How the data were processed

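Array images were quantified by the authors in Feature Extraction 11.5.1.1, and log2 signals were shifted by each array's 75th percentile in GeneSpring GX 12.6. The deposited scanner output holds linear intensities, background-subtracted, with a surrogate for spots not above background. The deposited value table, in log2 after that shift, served as an alternative. Members and gene lists were chosen with earlier results of these data known.

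Signals were recomputed in Python 3.11.15 with pandas 2.3.3 and numpy 2.4.6. Outlier spots were left out, spots of a probe were averaged on the log2 scale, and each array's 75th percentile of sample probes (36.7, 37.12, 37.03 and 32.65 signal units) was subtracted. A mark held for a probe when at least 0.5 of its spots carried it. Fits used limma 3.58.1 (R 4.3.3) over the 21033 probes that both arrays of a group, or of both groups, marked well above background, with p-values adjusted by Benjamini-Hochberg, after a check on simulated data. The prior had 3.52 degrees of freedom. With 2 pools against 2, an exact two-sided permutation test cannot go below 0.333 and was not used. Precision is limited by the number of arrays. The 4 arrays share 1 slide and 1 scan. A bound of "at least" sets the bright group's mean against the lowest signal of probes well above background on each dim array, or the probe's own if higher.

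All probes of the members are given. Partner genes were named when past an adjusted p of 0.05 and well above background on all 4 arrays, up to 4 lower and 4 higher by size of change, which gave 3 and 1. Of the 17 probes, 12 matched a RefSeq accession, all 12 with the same symbol. Buffalo RNA was read with cattle oligos, and the effect of base differences between the species was not tested. Alternatives covered the percentile, background correction, between-array scaling, filters, a floor, outlier and patch spots, the block, an intensity trend, single pools, the value table, the gene rule and the methods' t-test. The summed level of the red cell list is not reported here.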

Additional observations from a re-analysis of the deposited data

How the results depend on the processing

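The count of 4 enzyme probes past an adjusted p of 0.05 in limma became 7, all lower, with arrays scaled by spike-in controls, which added DNMT1 A_73_P043901 (-0.60), DNMT1 A_73_P332021 (-0.93) and DNMT3A A_73_110736 (-0.90). Over the whole array 7688 of 21033 probes then passed, against 5632 as reported. Of the probes called, 93.5% were then lower, against 65.6% as reported and 37.5% among probes well above background on all 4 arrays. With that last filter 2 enzyme probes, 2 enzyme genes and 5 partner genes passed, the enzymes being DNMT3A A_73_P167767 (adjusted p 5.27e-04) and DNMT3L (adjusted p 0.00453). A floor at the detection limit left 2 probes, 2 genes and 3 partner genes, and 2159 of 21033 probes over the array against 5632 as reported. Without a filter on dim probes and with the weaker detection mark, 0 enzyme probes, 0 enzyme genes and 0 partner genes passed, as did 0 of 51282 and 0 of 40145 probes over the array, and unadjusted p was under 0.05 for 6, 3 and 13 in the former and 6, 3 and 16 in the latter, and for 9278 and 9796 probes of the array. The methods' t-test with adjustment gave 0, 0 and 0 (0 of 21024 over the array), with 3, 3 and 7 at an unadjusted p under 0.05 and 6084 over the array. With each pool left out in turn, the 4 called enzyme probes stayed lower in the low-fertile pools. Some enzyme and partner calls were lost in these fits, and calls over the whole array were fewer in each of them. A lone pool stands for its group there, so counts of calls are not compared. Signs turned for TET3 (0.02 with the percentile over detected probes, and from -0.11 to 0.08 over the pools left out singly) and, with spike-in scaling, the probes TC401175 (-0.00) and ENSBTAT00000047352 (-0.09). The sign of DNMT3A A_73_110736 also turned (0.31 with the floor), as fixed by the limit of low-fertile pool 2. With the pool number as a replicate block 4 enzyme probes, 4 enzyme genes and 8 partner genes passed, as did 5331 of 21033 probes over the array. The 8 partner genes were all lower, and MBD3 lost its call (adjusted p 0.0786 in limma). The numbers did not pair the pools (r = 0.0055 over 21024 probes). With normexp background correction, which adds an offset of 50, the called probes kept their direction at -0.98 (DNMT3A), -0.65 (DNMT3L), -0.77 (TET2) and -0.36 (UHRF1), each still called. Over the array 7295 of 21033 probes passed in that fit. Spike-in scaling moved the difference of all probes down by about the same amount. The 75th percentile lay -7.798 and -7.974 log2 units from the spike-ins in the low-fertile arrays, against -7.476 and -7.474 in the high-fertile arrays. Why these levels differ was not tested. The cause of the other shifts was not tested either, apart from fewer or more probes being tested under other filters.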

Other observations

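Some probes carry a member's name in their description but another gene name, and were looked at after their values were seen. The probe described as TET1 (ENSBTAT00000010614, chr28:24274879-24274938 in Btau_3.1) read 67.2 and 81.6 in the high-fertile and 42.8 and 54.0 in the low-fertile pools. The low-fertile pools were lower, with a log2 difference of -0.54 (SE 0.22, 95% interval -1.10 to 0.02, adjusted p 0.13 in limma, from 0.0222 to 0.419 over the alternatives). That difference was -0.28 without low-fertile pool 1 and -0.80 without low-fertile pool 2. One described as DNMT1 (TC401175, chr7:13117990-13118049) read 38.7 and 37.5 against 52.4 and 43.4, a log2 difference of 0.41 (SE 0.14, adjusted p 0.0871 in limma), above in both low-fertile pools. One described as TET3 (ENSBTAT00000047352, chr11:10879464-10879523) read 17.9, 18.2, 26.2 and 17.2, with a log2 difference of 0.32 (SE 0.19, adjusted p 0.258 in limma). Most of this came from low-fertile pool 1, as it was 0.10 without that pool and 0.53 without low-fertile pool 2.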
